A study of Mus musculus with 4 samples.

Results

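A set of 10 long noncoding RNAs known for their place in the nucleus or for imprinted expression were followed in the muscle of mice without AMPKα2 (KO) and of wild-type mice (WT). They were chosen by symbol, as Malat1, Neat1, Meg3, Rian, Mirg, H19, Kcnq1ot1, Snhg11, Miat and Gas5, and all rows of the table with one of these symbols were taken. Of the 10 RNAs, 7 were listed with at least 1 alternative start site (ASS), and these 7 held 95 of the 42207 ASSs of the table. The KO mice were AMPKα2-/- on C57BL/6, with a deletion in the catalytic domain of the AMP-activated protein kinase subunit encoded by Prkaa2, and were about 8 weeks of age. The WT mice were their controls, and the study's methods give all animals as male and no separate age for WT. The tissue was gastrocnemius muscle of adult animals, the labels name no treatment, and each group had n = 2 libraries, each from 1 animal.

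The method was WTSS-seq, a sequencing of start sites over the whole transcriptome, in which RNA depleted of ribosomal RNA is copied with template switching at its 5′ end and sequenced from that end. A read thus marks where an RNA, or a fragment of one, begins. The KO libraries held 2900279 and 2303294 reads and the WT libraries 1300069 and 1568945, so a count of 3 reads, taken as the floor of detection, was worth 1.03 to 2.31 RPM (on the reads-per-million scale of each library). The level of Prkaa2 did not tell the groups apart, with normalized counts of 149 and 183 in KO and 153 and 186 in WT (adjusted p = 0.994, Wald test of DESeq2). The deleted bases of Prkaa2 are not placed on the genome here, so this is no check of the labels. All 6 muscle fibre markers were listed, at 31918 to 41132 RPM in sum, and 3 of 4 immune markers summed to 37.2 and 31.3 RPM in KO and 160 and 82.9 in WT, with Cd68 not listed. The sums of 5 of 5 fibroblast markers (1463 and 1055 in KO, 1731 and 1579 in WT) and 3 of 4 endothelial markers (17.9 and 7.81, 20.8 and 26.1) were also lower in both KO libraries. The 1 listed satellite cell marker of 4 was higher in both (8.96 and 5.64, 2.31 and 0.637). Its WT values were not above the floors of those libraries, 2.31 and 1.91 RPM. Of the 26 listed markers of 8 cell types, 0 were called by DESeq2 or edgeR. In DESeq2, 3 had an unadjusted p under 0.05, 2 of them immune markers and 1 a fibroblast marker. The part of the markers in the results below was not tested.

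Malat1 is an abundant nuclear RNA held in speckles, the bodies where splicing factors gather. Neat1 is the RNA on which paraspeckles are built, and it exists as a short form and a long form that begin at the same promoter. H19 and Kcnq1ot1 are imprinted RNAs of neighbouring domains, H19 from the maternal and Kcnq1ot1 from the paternal chromosome, and Kcnq1ot1 silences genes around it. Meg3, Rian and Mirg lie in a row in another imprinted domain and are expressed from the maternal chromosome, Gas5, Rian and Snhg11 host small nucleolar RNAs (snoRNAs) in their introns, and Miat is a nuclear RNA best known from nerve and heart.

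The sequences below show the start of Malat1, which its main ASS covered, the start of Kcnq1ot1, where no ASS lay, and the microRNA hairpin inside H19, which 1 ASS touched. They were taken from RefSeq on GRCm38.p6 and are written 5′ to 3′ on the strand of the gene, which was the minus strand for all of them. In the Malat1 window, chr19:5802623-5802922, capitals mark the 66 bases covered by the main ASS. The Kcnq1ot1 sequence, chr7:143296498-143296597, is the last 100 bases of its start window and has no capitals since no ASS covered a base of it. In the hairpin of microRNA 675, chr7:142577064-142577147, capitals mark the 7 bases covered by an ASS of H19, and in the mature forms, which begin and end inside the hairpin, capitals mark the seed, bases 2 to 8.
Malat1 start window: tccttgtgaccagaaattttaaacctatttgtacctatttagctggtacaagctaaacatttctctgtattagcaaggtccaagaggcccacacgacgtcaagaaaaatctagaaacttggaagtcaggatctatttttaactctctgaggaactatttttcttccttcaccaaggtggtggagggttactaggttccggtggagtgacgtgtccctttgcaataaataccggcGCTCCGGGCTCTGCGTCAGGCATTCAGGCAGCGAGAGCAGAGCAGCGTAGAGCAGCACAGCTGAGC
Kcnq1ot1 start window: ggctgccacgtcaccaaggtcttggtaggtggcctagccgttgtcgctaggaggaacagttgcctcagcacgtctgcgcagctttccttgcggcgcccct
microRNA 675 hairpin: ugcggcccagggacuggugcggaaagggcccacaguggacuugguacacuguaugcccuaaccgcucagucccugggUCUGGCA
mmu-miR-675-3p: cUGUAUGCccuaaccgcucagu
mmu-miR-675-5p: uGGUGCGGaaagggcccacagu

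The capitals of the Malat1 window ran from 16 bases before the annotated start to the end of the window. The letters TATAAA were absent from both strands of the Malat1 and Kcnq1ot1 start windows of 300 bases, and 13.6% of 32851 RefSeq start windows held them on either strand. The letters CCAAT occurred 3 times in the Kcnq1ot1 window of 300 bases and not in that of Malat1, against 37.4% of windows with at least 1 match. RefSeq start windows of Neat1 and H19 were not used here.

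The 7 detected RNAs together made up 0.835% and 0.911% of the reads in KO compared with 0.867% and 1.02% in WT, and Malat1 alone made up 84.3% to 87.0% of these. On the scale of RPM per kb of gene span, Malat1 stood at 1014 and 1115 in KO and 1048 and 1266 in WT. H19 followed at 194 and 185 in KO against 112 and 127 in WT, and Neat1 at 28.7 and 31.2 in KO compared with 44.9 and 43.2 in WT. The lowest value of each of these 3 RNAs was above the highest of the next. Gas5 at 1.46 to 3.53 and Kcnq1ot1 at 0.993 to 2.07 overlapped in their ranges over the libraries, and within each library Gas5 was the higher. The lncRNA genes were also ranked by reads per kb summed over the 4 libraries, where deeper libraries weigh more. Of 600 lncRNA genes of the table, the 383 with a sense ASS on their own primary chromosome were ranked. Among these 383, Malat1 ranked 2, H19 5, Neat1 8, Gas5 35, Kcnq1ot1 63 and Mirg 241. Meg3 had no such ASS and was not ranked.

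Between KO and WT, Malat1 showed no separation, Neat1 was lower in both KO libraries, and H19 and Kcnq1ot1 were higher in both. None of these differences passed the test, and in whole muscle fewer cells of a type cannot be told apart from less RNA per cell. Of the 7 RNAs, 5 had counts high enough for an adjusted p-value, 0 of the 5 were called at adjusted p under 0.1, and 2.67% of the 4688 genes tested were called. The unadjusted p was under 0.05 for 0 of the 5 in DESeq2 and for 0 in the quasi-likelihood test of edgeR. In the whole table it was so for 677 of the 9838 genes fitted in DESeq2 and for 644 of 6115 genes tested in edgeR. For 3 of the 5 the KO and WT libraries did not overlap, and 41.4% of all genes tested had such groups. The median log2 fold change, KO minus WT, was 0.28 for the 5 and 0.01 for all genes tested.

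**Figure D1:**
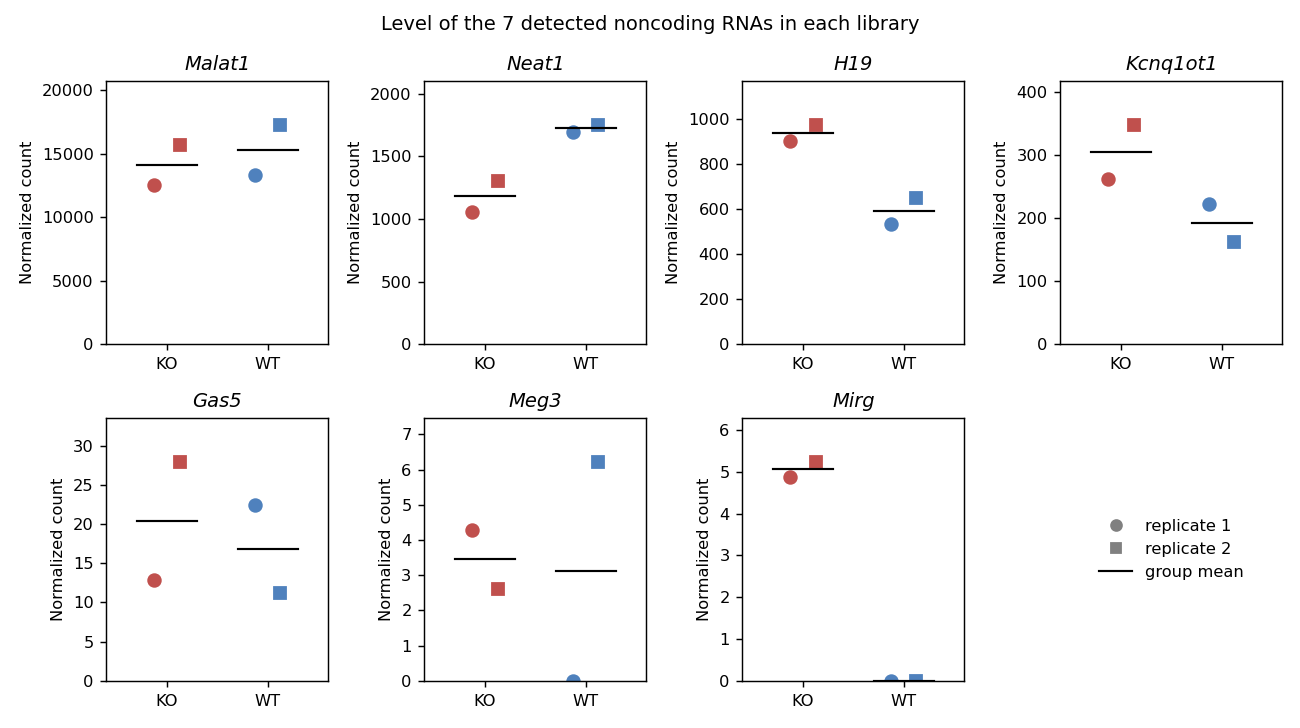
Normalized counts (y axis, linear from 0, one scale per panel) of the 7 detected noncoding RNAs in the 2 KO and the 2 WT libraries. Symbols are libraries and lines are group means. Groups are apart in Neat1 (KO lower), in H19 and Kcnq1ot1 (KO higher) and in Mirg, which had 0 reads in WT, and they overlap in Malat1, Gas5 and Meg3.

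Malat1 (chr19:5795690-5802672) had 20544 and 17927 reads in KO and 9510 and 13869 in WT, or normalized counts of 12549 and 15665 in KO against 13336 and 17274 in WT. The libraries of the groups overlapped, with the highest value in WT and the lowest in KO. The log2 fold change was -0.12 (SE 0.40, 95% interval -0.89 to 0.66, adjusted p = 0.992). Means were 14107 ± 2204 in KO and 15305 ± 2784 in WT (SD, n = 2).

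Neat1 (chr19:5824708-5845480), the neighbour of Malat1, had normalized counts of 1056 and 1306 in KO and 1700 and 1752 in WT, from 1729, 1494, 1212 and 1407 reads. The WT libraries were close to each other and both stood above KO. The means were 1181 ± 176 in KO and 1726 ± 37.4 in WT (SD, n = 2), and the log2 fold change was -0.55 (SE 0.40, 95% interval -1.33 to 0.23, adjusted p = 0.793). It kept its sign with each library left out, from -0.70 to -0.39.

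H19 (chr7:142575530-142578146) had normalized counts of 901 and 973 in KO and 534 and 650 in WT, from 1475, 1113, 381 and 522 reads. Both KO libraries were above both WT libraries, with means of 937 ± 50.6 and 592 ± 81.9 (SD, n = 2). The log2 fold change was 0.66 (SE 0.41, 95% interval -0.14 to 1.47, adjusted p = 0.691), and it stayed between 0.53 and 0.78 with each library left out.

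Kcnq1ot1 (chr7:143213111-143296547), which crosses an intron of the potassium channel gene Kcnq1 in antisense, had normalized counts of 262 and 348 in KO compared with 223 and 162 in WT. These rested on 429, 398, 159 and 130 reads, with KO again above WT in both libraries. The log2 fold change was 0.66 (SE 0.48, 95% interval -0.28 to 1.61, adjusted p = 0.791), and it ran from 0.42 to 0.91 with each library left out. The 95% intervals of Neat1, H19 and Kcnq1ot1 all covered 0.

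Gas5 (chr1:161034601-161038539), an RNA of growth arrest and a host of snoRNAs, had 21 and 32 reads in KO and 16 and 9 in WT. Its normalized counts of 12.8, 28.0, 22.4 and 11.2 overlapped between the groups (log2 fold change 0.28, SE 1.07, adjusted p = 0.992). The remaining RNAs were at the edge of detection. Meg3 had 1 ASS, which lay in an intron on a scaffold outside the primary chromosomes with 7 and 3 reads in KO against 0 and 5 in WT, and its locus on chromosome 12 (109540996 to 109571729) had 0 ASSs. Mirg, the host of many microRNAs, had 1 intronic ASS at chr12:109736080-109736082 with 8 and 6 reads in KO and 0 in both WT libraries. In RPM this was 2.76 and 2.60 in KO, against up to 2.31 and 1.91 that a count of 0 allows in the WT libraries, so no fold is given and the site had no adjusted p-value. Rian, Snhg11 and Miat had 0 ASSs under their symbols or synonyms, and no ASS of any other symbol lay in their spans. The lowest total of a listed site was 10 reads over the 4 libraries, so reads spread over smaller sites would not be listed, and 0 listed sites does not show that these 3 RNAs were absent.

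The class code of a site says where it lies in the gene. Of the 95 ASSs, 91 had the class code c (contained in an annotated exon), 2 the code i (intronic) and 2 the code x (antisense to an exon). Code c thus made up 95.8% of their sites, against 38.6% of the 40426 sites assigned to a gene and 22.2% of the 1147 sites of 600 lncRNA genes. Their median width was 38 bases, against 13 bases for all sites with a gene and 9 bases for lncRNA sites. Malat1, Neat1 and Kcnq1ot1 gave most of the c sites and had 0 of code i, while Meg3 and Mirg had intronic sites alone. A gene annotated without introns can hold no site of code i, so the share of c depends on the annotation. Of the lncRNA sites, 438 had code i and 402 code x. These pooled shares are a description.

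In Malat1 and Neat1 the ASS with most reads covered the annotated start. The main ASS of Malat1 (chr19:5801676-5802688) was 1013 bases wide and held 55.1% and 65.6% of the reads of the gene in KO compared with 40.1% and 58.1% in WT. The next ASS (chr19:5800607-5801641) held 35.2% and 27.8% in KO against 44.6% and 31.8% in WT, and these 2 sites together held 90.2% of all Malat1 reads. The remaining 28 sites of Malat1 included chr19:5799155-5799548 with 2.53% of the reads. The position that the table gives for the main ASS lies 718 bases downstream of the start, what this position marks inside a wide site is not stated, and where its reads begin within the 1013 bases is not known. WT replicate 1 had the lowest share in the main ASS and the highest in the next, and KO and WT overlapped in the share of the first.

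The main ASS of Neat1 (chr19:5845308-5845492) covered the start at position 5845480 and held 62.6% and 63.5% of Neat1 reads in KO and 62.1% and 61.1% in WT. Its share thus differed by less than 3 percentage points among the libraries. The ASSs at chr19:5843321-5843539 and chr19:5843781-5843905 came next with 6.20% and 4.59%. Along the gene, 20 ASSs lay within 3398 bases of the start, none lay in the next 5395 bases, and 15 lay farther downstream. The sites before this gap held 90.7% and 94.2% of the reads in KO compared with 90.6% and 94.4% in WT. The sites after it, which lie in the part that only the long form has, held 160 and 86 reads in KO and 114 and 79 in WT, or 55.2 and 37.3 RPM in KO against 87.7 and 50.4 in WT, where the groups overlapped.

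H19 and Kcnq1ot1 had few or no reads at the annotated start. In H19, ASSs within the last 500 bases held 88.1% and 87.2% of the reads in KO against 89.2% and 80.8% in WT, while the ASS at the annotated start (chr7:142578012-142578131) held 3.73% and 5.39% in KO against 4.46% and 5.56% in WT. The 2 leading sites, chr7:142575751-142575852 and chr7:142575676-142575726, held 86.5% of all H19 reads. In Kcnq1ot1 no ASS lay in the start window printed above, and the nearest was 2758 bases downstream. Its leading ASSs lay 18678 bases (chr7:143277861-143277889), 37158 bases (chr7:143259374-143259400) and 60445 bases (chr7:143236083-143236107) into the RNA, with 44.2%, 29.4% and 6.54% of its reads.

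Sense ASSs on the chromosome of the gene were read for 3531 genes with at least 100 reads at these sites and a span of at least 1 kb. The ASS with most reads covered the annotated start, within 100 bases, in 168 (4.76%). The last 500 bases held more than 50% of the reads in 246 (6.97%). Among the 57 lncRNA genes of this set, these numbers were 4 (7.02%) and 5 (8.77%). Neat1, and Malat1 by its wide site, were among the first kind and H19 among the second.

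**Figure D2:**
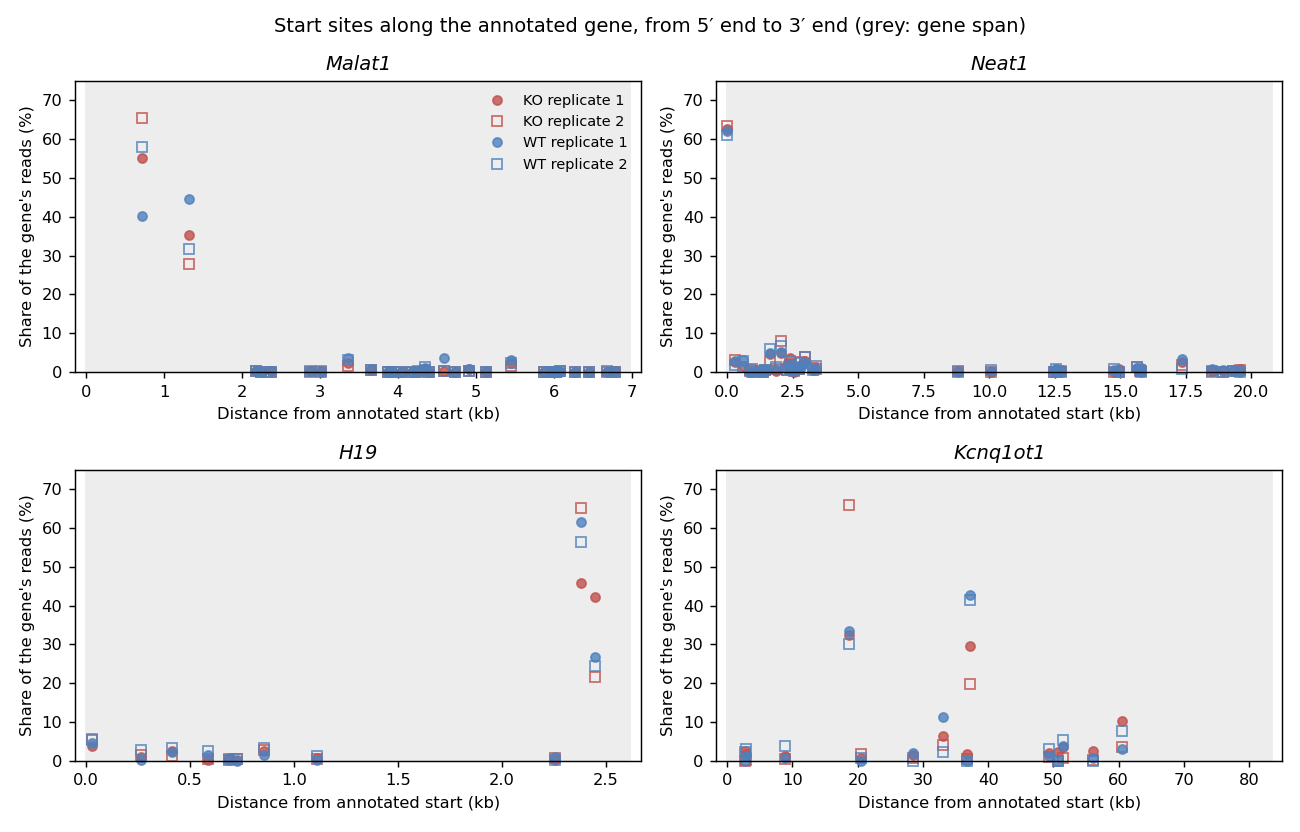
Share of the reads of each gene (y axis, percent) at each sense ASS against the distance of the site from the annotated start (x axis, kb, grey for the gene span), with one symbol per library. Each point stands at the position the table gives for the site, so the main Malat1 ASS, which is 1013 bases wide and covers the start, stands at 0.718 kb. The leading site stands at the start in Neat1, near the 3′ end in H19 and inside the RNA in Kcnq1ot1.

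Several small ASSs lay at the edges of small RNAs. Both ASSs of Gas5 were 3 bases wide and coded c. The site at chr1:161035845-161035847 had 3 and 24 reads in KO compared with 12 and 9 in WT, and its position was 4 bases upstream of an annotated snoRNA (chr1:161035850-161035911). The site at chr1:161036054-161036056 had 18 and 8 reads in KO against 4 and 0 in WT and was 2 bases upstream of the next snoRNA (chr1:161036057-161036139). The first took 14.3% and 75.0% of Gas5 reads in KO and 75.0% and 100% in WT, so the balance between the sites differed more within KO than between the groups. The other 6 of the 8 snoRNAs annotated inside Gas5 had no ASS at their 5′ edge. In the whole table, 15 of 42005 sites (0.0357%) had their position 0 to 5 bases upstream of a RefSeq snoRNA, with 1340 such snoRNAs searched.

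Near the 3′ end of Malat1, the ASS at chr19:5795978-5795992 had 25 and 6 reads in KO and 7 and 26 in WT. Its position was 4 bases upstream of mascRNA (chr19:5795924-5795981), the small cytoplasmic RNA that is cut from the end of the Malat1 transcript. The groups overlapped, and the read numbers differed more within each group than between them. In H19, the ASS at chr7:142577015-142577070 covered the last 7 bases of the microRNA 675 hairpin, printed above, with 12 and 6 reads in KO compared with 1 and 6 in WT, and it covered no base of either mature form. The ASS of Mirg lay 380 bases from the nearest of the 10 microRNA hairpins annotated inside that gene.

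At the level of single ASSs, 49 of the 95 had an adjusted p-value, 1 of them was called, and 3.21% of the 11112 sites tested in the whole table were called. The unadjusted p was under 0.05 at 2 of the sites of these RNAs in DESeq2 and at 2 in edgeR. In the whole table it was so at 1711 of the 42207 sites fitted in DESeq2 and at 1162 of 11242 sites tested in edgeR. KO and WT did not overlap at 25 of the 49, against 40.4% of all sites tested, in either direction. KO was above at 7 and below at 18. These 18 were 10 sites of Malat1 and 8 of Neat1. The log2 fold change was above 0 at 16 of the 49, against 5949 of 11112 over all sites tested, with medians of -0.26 and 0.10. Malat1 and Neat1 gave 21 and 17 of the 49 sites. Sites of 1 gene come from the same libraries and are not independent, so these pooled counts are a description. In H19, 6 of 6 tested sites were higher in KO, with log2 fold changes from 0.19 to 1.11, and in Kcnq1ot1 3 of 4 were, from -0.03 to 1.44. In Neat1 3 of 17 were higher, from -1.70 to 0.36, and in Malat1 4 of 21, with a median of -0.41.

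The called site was an internal ASS of Malat1 at chr19:5798039-5798169, with 69 and 39 reads in KO and 346 and 42 in WT. Its normalized counts were 45.3 and 33.7 in KO and 470 and 48.5 in WT, so WT replicate 1 alone stood apart. The log2 fold change was -2.71 (SE 0.89, adjusted p = 0.0854), and it was -0.30 without WT replicate 1 (adjusted p = 0.998). In edgeR the adjusted p was 0.285. Its range over all alternatives was 0.00144 to 1.00.

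The other sites with an unadjusted p under 0.05, 1 in each tool, were named after their values were seen. In edgeR it was another internal ASS of Malat1, at chr19:5798380-5798462, with 7 and 9 reads in KO and 17 and 30 in WT, lower in both KO libraries (edgeR adjusted p = 0.331, DESeq2 adjusted p = 0.590). In DESeq2 it was an antisense ASS of Malat1 at chr19:5801242-5801245, on the plus strand, with 0 and 41 reads in KO and 0 in both WT libraries (adjusted p = 0.266). All of its reads came from KO replicate 2.

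Of the leading sites, the main ASS of Malat1 had normalized counts of 7427 and 10145 in KO and 5178 and 9308 in WT (log2 fold change 0.28, SE 0.57, adjusted p = 1.00). The next had 4749 and 4298 in KO and 5750 and 5089 in WT, with both KO libraries lower (log2 fold change -0.26, SE 0.53, adjusted p = 1.00). The main ASS of Neat1 had 710 and 819 in KO against 1022 and 993 in WT, and KO was lower in both (log2 fold change -0.40, SE 0.54, adjusted p = 1.00). The 2 leading sites of Malat1 thus had estimates of opposite sign, each smaller than its standard error.

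The leading ASSs of H19 differed in how even the KO libraries were. The first had 444 and 625 normalized counts in KO and 318 and 340 in WT (log2 fold change 0.70, SE 0.57, adjusted p = 0.950), and the second 408 and 207 in KO and 138 and 147 in WT (log2 fold change 1.11, SE 0.64, adjusted p = 0.667). In Kcnq1ot1, the ASS with most reads had 91.2 and 226 in KO and 71.9 and 45.0 in WT (log2 fold change 1.44, SE 0.75, adjusted p = 0.549, and 0.63 without KO replicate 2). Its second ASS had 83.3 and 68.2 in KO compared with 92.3 and 62.4 in WT and overlapped (log2 fold change -0.03, SE 0.74, adjusted p = 1.00). The ASS with most reads held 65.8% of Kcnq1ot1 reads in KO replicate 2, 32.4% in KO replicate 1 and 33.3% and 30.0% in WT. The higher Kcnq1ot1 total thus rested largely on that site in KO replicate 2 but not in KO replicate 1. Without KO replicate 2 the log2 fold change of the gene was 0.46.

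**Figure D3:**
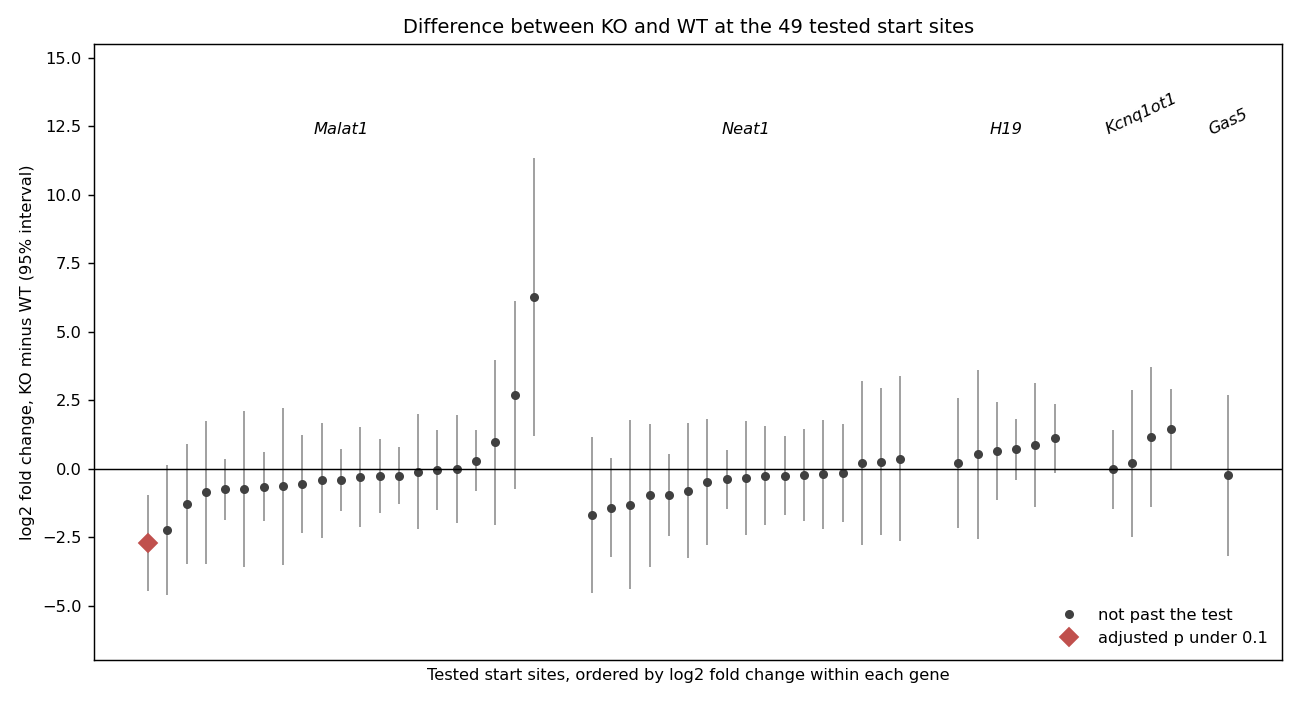
Log2 fold change, KO minus WT (y axis), with 95% intervals, at each of the 49 tested ASSs (x axis), ordered within each gene. The single called site, a Malat1 ASS at -2.71, is a red diamond, and the highest value, 6.26, is the antisense Malat1 ASS seen in 1 KO library.

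Reads could also move between the ASSs of one gene while the gene total stays. This was tested for 4 of the RNAs that had at least 2 sites past the filter, and 0 of 4 were called, against 1.35% of 2145 genes in the table. The adjusted p by the Simes method was 0.235 for Malat1 over 18 sites (unadjusted p = 0.0104) and 1.00 for Neat1 over 17 sites, H19 over 6 and Kcnq1ot1 over 4. The gene-level F test gave adjusted p = 0.284 for Malat1. Among single sites, the internal Malat1 ASS called above passed this test (usage log2 fold change -1.86, adjusted p = 0.0808), and 0.759% of the 7910 sites tested were called. Its share of Malat1 reads was 0.336% and 0.218% in KO and 3.64% and 0.303% in WT, so the groups overlapped. This is the site where WT replicate 1 alone stood apart.

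The proteins and genes that go with these RNAs were read in the same fit. Of 18 paraspeckle proteins, 13 were tested, 0 were called or had an unadjusted p under 0.05 in DESeq2 or edgeR, and 5 were higher in KO, with a median log2 fold change of -0.15 against 0.01 over all genes tested. Pspc1 and Sfpq, among those with the highest counts, are core RNA-binding proteins of the paraspeckle. Pspc1 had normalized counts of 1169 and 1505 in KO and 1129 and 478 in WT (log2 fold change 0.73, SE 0.49, adjusted p = 0.742). It was 1.48 without WT replicate 1 and 0.21 without WT replicate 2. Sfpq had a log2 fold change of 0.35 (SE 0.47), from 0.13 to 0.56 with each library left out. Pspc1 was above WT in both KO libraries, though WT replicate 2 was less than 50% of WT replicate 1.

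Of 20 nuclear speckle proteins, 13 were tested, 0 were called by DESeq2 or edgeR, and 2 were higher in KO, with a median of -0.23. The unadjusted p was under 0.05 in DESeq2 for 2, named after their values were seen, the splicing factors Srsf7 (log2 fold change -1.88, adjusted p = 0.505, with a normalized count of 86.9 in WT replicate 1 and at most 16.2 in each other library) and Srrm1 (log2 fold change -1.98, adjusted p = 0.237). Son, a scaffold of the speckle, had a log2 fold change of 0.47 (SE 0.50), from 0.18 to 0.79 with each library left out, and the splicing proteins Pnn and Luc7l3 of -0.29 (SE 0.51) and -0.01 (SE 0.73). The estimates of these 3 were smaller than their standard errors.

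Of 19 genes around H19 and Kcnq1ot1, a list chosen with earlier results of these data known, 11 were detected and 7 were tested. Over all 4688 genes tested 2.67% were called, and of these 7 genes 1 was called, as lower in KO. This was Tspan32, a tetraspanin gene of blood cells, with 6 and 4 reads in KO and 35 and 28 in WT at its single ASS (log2 fold change -3.55, SE 1.03, adjusted p = 0.0340). The call held in edgeR without the replicate number as a block (adjusted p = 0.0887) and with it (adjusted p = 0.0782). It was lost with the block in DESeq2 (log2 fold change -3.54, adjusted p = 0.132). It was also lost without KO replicate 1 (-3.58) and without KO replicate 2 (-3.51). No adjusted p-value was given without WT replicate 1 (-3.28) or WT replicate 2 (-3.80). The fold change stayed about as large in all of these. As given above, immune markers were also lower in both KO libraries, while the listed blood markers were higher in both. The part of these markers in the Tspan32 difference was not tested. Tnni2 and Tnnt3, fast troponins that lie beside H19, had log2 fold changes of -0.68 (SE 0.55) and -0.05 (SE 0.39), with Tnni2 at -0.077 without KO replicate 1, -1.69 without KO replicate 2, -1.11 without WT replicate 1 and -0.10 without WT replicate 2, and Lsp1, of leukocytes, of 0.14 (SE 0.57).

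Of 8 genes around Meg3, 1 was listed and tested. It was called in neither tool, and its unadjusted p was under 0.05 in edgeR but not in DESeq2. Yy1, a transcription factor, had normalized counts of 195 and 100 in KO and 1029 and 88.4 in WT, with WT replicate 1 far above the others (log2 fold change -1.92, SE 1.46, adjusted p = 0.825), and the log2 fold change was 0.75 without that library and -2.82 (adjusted p = 0.00139) without WT replicate 2. Of 14 genes around Malat1 and Neat1, 5 were listed and 1 was tested, with 0 called or with an unadjusted p under 0.05 in DESeq2 or edgeR. Ehbp1l1 had a log2 fold change of -0.22 (SE 0.50), while Frmd8 and Fam89b, with 1 ASS each, had no adjusted p-value.

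Of 37 other noncoding host and nuclear RNAs, 16 were listed, 8 were tested and 1 was called, as higher in KO, with a median of 0.25. Over all 4688 genes tested, 2.67% were called. The list was chosen with earlier results of these data known, so its count of called genes is a description. The unadjusted p was under 0.05 for 2 in DESeq2 and for 3 in edgeR. The 2 in DESeq2 were the called gene and Snhg20, named after its values were seen. Snhg20 had 19 and 66 reads in KO and 5 and 0 in WT (log2 fold change 3.33, DESeq2 adjusted p = 0.280). Snhg5, a host of snoRNAs, had 817 and 2719 reads in KO and 81 and 45 in WT, all at 1 ASS (chr9:88521256-88521298). This site, on the minus strand with code c, lay near the 3′ end of the gene span (chr9:88521052-88522897). No listed ASS covered the annotated start, so a change at the start of Snhg5 was not tested. The normalized counts were 499 and 2376 in KO and 114 and 56.0 in WT (log2 fold change 4.08, SE 0.64, adjusted p = 8.71e-08, edgeR adjusted p = 0.0378). The call was lost without WT replicate 1 (log2 fold change 4.68, adjusted p = 0.151) and without WT replicate 2 (3.63, 0.507), while the fold change stayed about as large. It was 4.82 without KO replicate 1 (adjusted p = 1.63e-10) and 2.57 without KO replicate 2 (adjusted p = 0.0571). Lncpint had a log2 fold change of 0.59 (SE 0.45) and Snhg7 of -0.15 (SE 0.54).

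**Figure D4:**
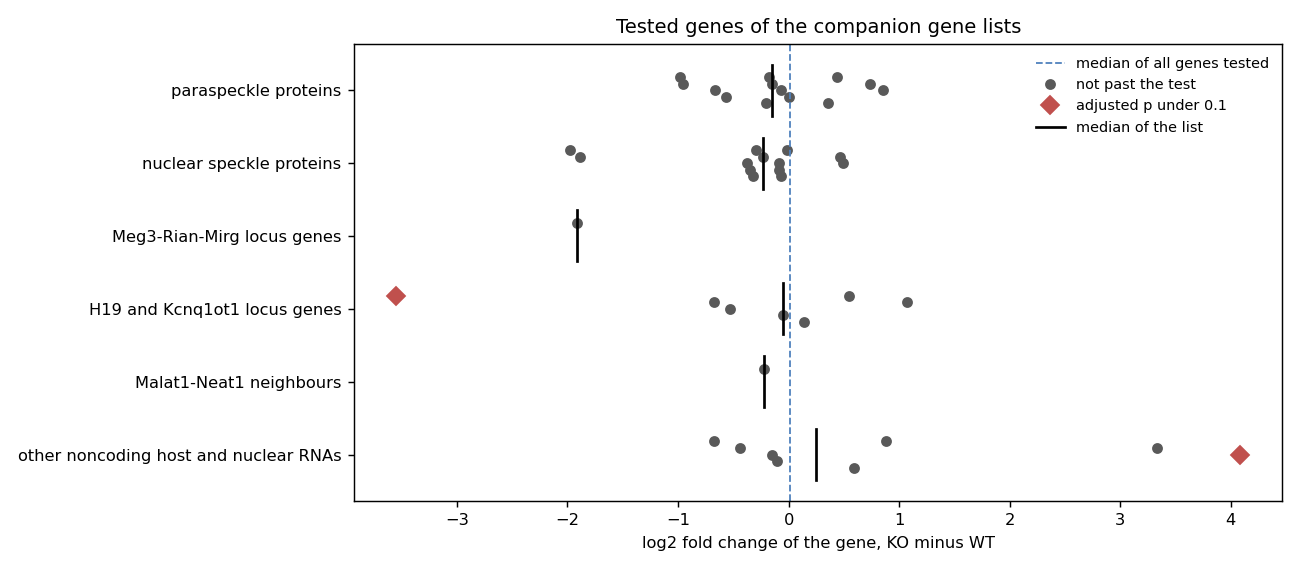
Log2 fold change of each tested gene, KO minus WT (x axis), for the 6 gene lists (y axis). Black bars are list medians, the dashed line is the median of all genes tested (0.01), and the red diamonds are the called genes, Tspan32 at -3.55 and Snhg5 at 4.08.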

How the data were processed

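The authors deposited 1 table of raw read counts with 1 row per ASS and 1 column per library, with a strand, a gene symbol and a Cuffcompare class code for each site, on GRCm38.p5. Mapping and clustering settings of the 5′ libraries are not given in the sources used here, and no molecular identifiers were described, so floors cover counting error only. Groups and replicate numbers come from the sample titles. The members and the gene lists were chosen with earlier results of these data known. Counts were summed per symbol, all 9838 genes and all 42207 sites were fitted, and only the rows described were printed. KO and WT were compared by DESeq2 (version 1.42.0) in R (version 4.3.3), using its Wald test and size factors, default independent filtering (mean count above 16.5 for genes and 8.76 for sites) and a Benjamini-Hochberg adjusted p under 0.1, as in the study's methods. "Called" means past this threshold. Normalized counts are counts divided by the size factors, and 95% intervals are the log2 fold change ± 1.96 SE. The quasi-likelihood test and diffSpliceDGE of edgeR (version 4.0.16), with the Simes method for start site usage, were run beside it. The scripts were tested on simulated data. An exact two-sided permutation test of 2 libraries against 2 cannot go below p = 0.333. Replicates differed by more than sampling noise (chi-square per degree of freedom of 10.5 in KO and 6.46 in WT). Libraries with the same number shared no pairing in the labels, and their deviations from the group means had a correlation of 0.0716 over genes and 0.0710 over sites. Named list genes were the 3 with the highest mean normalized count of each list and every called gene, of which 1 gene is not reported here. Named sites were the 3 with most reads of each RNA and every called site, and sites at the edges of small RNAs were added after their values were seen. Positions of genes and small RNAs and the sequences are from RefSeq on GRCm38.p6, whose table held 9262 of the 9838 symbols. Sites with no gene held 4.54% of the reads and stayed in the site fit only. Alternatives were another test, other size factors, other filters and thresholds, sense sites alone, the replicate number as a block, and each library left out.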

Additional observations from a re-analysis of the deposited data

How the results depend on the processing

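The count of called genes among the 10 RNAs was 0 under every alternative run, and so was the count with changed start site usage. The count of called sites, 1 in the main fit, fell to 0 with edgeR, with independent filtering off, at an adjusted p under 0.05, with the replicate number as a block in DESeq2 and in edgeR (the latter added after seeing the data), and without KO replicate 1, KO replicate 2 or WT replicate 1. Leaving out single libraries gave 0 to 1. Neither the block nor any other alternative changed another call among the 10 RNAs, and over all sites 357 were called in the main fit, 80 with edgeR, 195 with the block in DESeq2 and 1 with the block in edgeR, and over all genes 125, 54, 95 and 96. The labels name nothing that samples with the same replicate number shared beyond the number. With 1 library left out the lone library was assumed to vary like the other group, and the range of the log2 fold change covered 0 for Malat1 (-0.29 to 0.051), Meg3 (-0.85 to 3.72), Gas5 (-0.38 to 0.86), Pnn (-0.68 to 0.22), Luc7l3 (-1.05 to 1.79), Yy1 (-2.82 to 0.75), Lsp1 (-0.25 to 0.51), Tnnt3 (-0.17 to 0.049), Frmd8 (-4.44 to 4.01), Ehbp1l1 (-0.52 to 0.12) and Snhg7 (-0.70 to 0.29). It did so for the leading sites of Malat1 (-0.079 to 0.72) and Gas5 (-2.78 to 0.67), for the second sites of Kcnq1ot1 (-0.34 to 0.28) and Neat1 (-0.77 to 0.15) and for the site of Meg3 (-0.68 to 3.79). Luc7l3, at -0.01, changed sign with library totals (0.0022), with the block in DESeq2 (0.26) and with the block in edgeR (0.23), and Frmd8, at 0.09, with the block (-0.17). The causes were not tested. Over all sites tested the median log2 fold change, 0.10 as reported, was 0.33 with independent filtering off, -0.062 with at least 10 reads in 2 libraries and -0.051 with library totals as size factors. Meg3 and Mirg rested on 15 and 14 reads over the 4 libraries, and Rian, Snhg11 and Miat had no listed site.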
